A study of Mus musculus with 2 samples.

Results

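Genes that bring iron into cells, store it, export it, sense it and recover it from heme were followed in the developing mouse forebrain. The set held 9 genes, Tfrc, Slc11a2, Fth1, Ftl1, Slc40a1, Aco1, Ireb2, Hmox1 and Hmox2, out of 55536 annotated genes. They were chosen by name for their roles, but with earlier results of these data known. All 9 were found in the tables of both libraries, and each had a TPM of at least 1 in both, whereas 58.9% of 22028 protein-coding genes did. TPM is a transcript abundance corrected for transcript length and scaled to 1e6 per library, so it can be compared between genes.

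The RNA came from forebrain of B6NCrl mouse embryos of mixed sex at embryonic day 12.5, with no treatment or genetic change named. There were 2 libraries, each from a pool of embryos. Pool 1 came from 120 embryos and pool 2 from 68 embryos, and 10 ng of RNA went into each. The labels call the pools biological replicates and name 1 group with no contrast, so levels are described with their spread and no test is given (an exact two-sided sign-flip test over 2 libraries cannot go below p = 0.5). Each ± is an SD over n = 2 pools.

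The libraries held 33373843 gene counts (pool 1) and 34406648 (pool 2), besides 1240711 and 1167338 counts of the added synthetic ERCC RNAs. Of the marker lists, 10 of 10 radial glia markers and 10 of 10 postmitotic neuron markers had a TPM of at least 1 in both pools. That level does not identify a tissue by itself, as 58.9% of 22028 protein-coding genes reached it. Of oligodendrocyte lineage markers 6 of 8 reached it, and of liver markers 2 of 7. Markers of other cells were present as well, with 12 of 13 erythroid markers, 11 of 12 macrophage and microglia markers, 10 of 10 endothelial markers, 10 of 10 markers of mesenchyme and meninges and 6 of 7 choroid plexus markers at that level. Summed erythroid TPM was 12689 in pool 1 and 16997 in pool 2. In bulk tissue, fewer cells of a type and less RNA per cell cannot be told apart.

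Cells take up iron mainly as transferrin bound to the transferrin receptor, and move it out of the endosome through a divalent metal transporter. Surplus iron is held in ferritin shells built of heavy and light chains, or leaves through ferroportin. When iron is scarce, the iron regulatory proteins bind a hairpin called the iron-responsive element, which blocks translation when it lies in a 5′ UTR and protects the mRNA from decay when it lies in a 3′ UTR. Neural progenitors and neurons need iron for respiration, DNA synthesis and later for myelin and transmitter synthesis. None of this background was tested here.

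The hairpin was looked for in the annotated transcripts of the 9 genes, because the sequences show which mRNAs carry the element and at which end. The pattern was a C, any 5 bases, the loop CAGTGN, and 5 bases that pair with the first 5 in all positions (A with T, G with C or G with T), read on the sense strand. It occurred in 0.628% of all 141767 GENCODE M21 transcripts and in 0.961% of the protein-coding ones. A match is a description of letters and not proof of a working element. In the sequences shown here, 30 bases each written 5′ to 3′ from the GENCODE M21 transcripts of the GRCm38 build, capitals mark the unpaired C and the 6-base loop. Coordinates are those of the 17-base pattern.
Fth1 5′ UTR, chr19:9982738-9982754, plus strand: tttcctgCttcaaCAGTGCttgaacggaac
Ftl1 5′ UTR, chr7:45459785-45459801, minus strand: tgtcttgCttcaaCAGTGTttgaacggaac
Slc40a1 5′ UTR, chr1:45925471-45925487, minus strand: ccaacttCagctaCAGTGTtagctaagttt
Tfrc 3′ UTR, chr16:32631225-32631241, plus strand: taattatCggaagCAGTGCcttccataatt
Tfrc 3′ UTR, chr16:32631604-32631620, plus strand: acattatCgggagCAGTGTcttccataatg
Tfrc 3′ UTR, chr16:32631669-32631685, plus strand: tctatatCggagaCAGTGAtctccatatgt
Tfrc 3′ UTR, chr16:32631716-32631732, plus strand: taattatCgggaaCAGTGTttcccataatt

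The matches of the heavy and light ferritin chains were nearly the same sequence, with 27 of 30 bases identical, although the genes lie on different chromosomes. The ferroportin match, at the same end of its mRNA, shared 13 of 30 bases with each of them. The 4 matches of Tfrc shared 18 to 25 of 30 bases with one another. The pattern ended 115 bases before the coding region in Fth1-201, 153 bases before it in Ftl1-201 and 207 bases before it in Slc40a1-201. In Tfrc-201 the patterns began 888, 1267, 1332 and 1379 bases after the stop codon. A search that also allowed the loop CAGAGN, which matched 1.32% of all transcripts, found one more in Tfrc, 829 bases after the stop codon. Thus 5 lay within one stretch of the 3′ UTR.
Tfrc 3′ UTR, loop CAGAGN, chr16:32631166-32631182, plus strand: tatttatCagtgaCAGAGTtcactataaat

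Slc11a2 had no match to the full pattern in any of its 8 transcripts. When 1 unpaired base was allowed in the 3′ run, or only 4 of 5 positions had to pair, 1 transcript matched, Slc11a2-205, 37 bases after its stop codon. Such relaxed matches were commoner, at 2.29% of all transcripts with an unpaired base and 5.16% with 4 of 5 pairs. The other long coding transcript, Slc11a2-201, had no match under any of these rules. Nor had any transcript of Aco1, Ireb2, Hmox1 or Hmox2, which says only that these letters are not there.
Slc11a2-205 3′ UTR, 1 unpaired base, chr15:100395159-100395175, minus strand: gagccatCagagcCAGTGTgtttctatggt

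**Figure D1:**
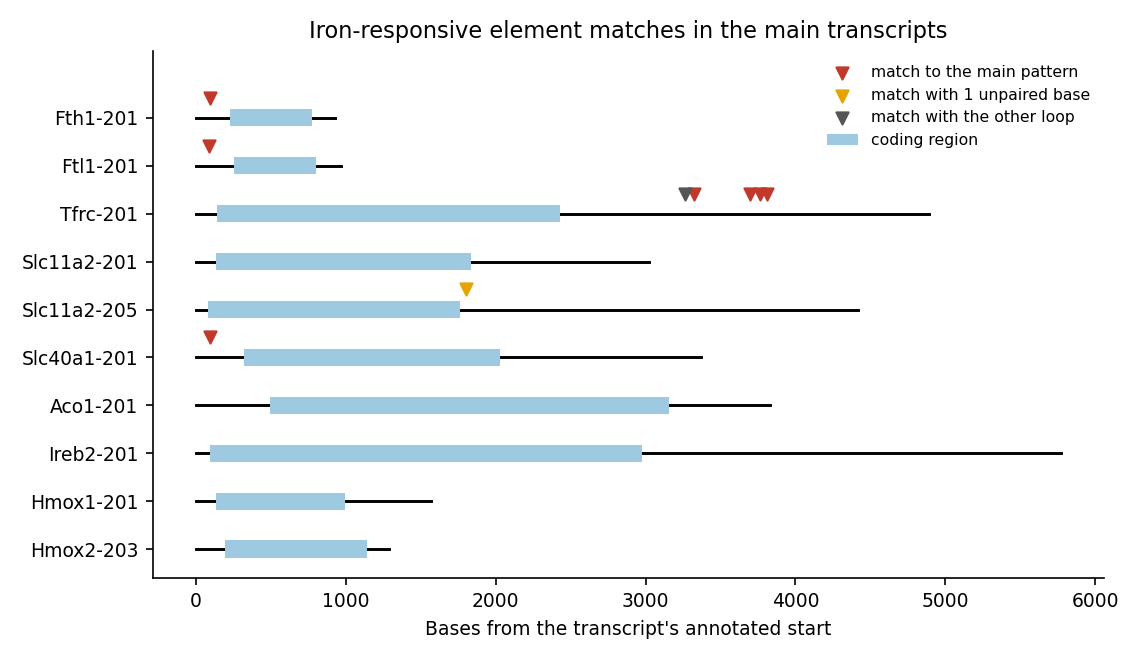
Main transcripts of the 9 iron genes drawn to scale, in bases from the annotated start, with the coding region as a box and each match as a triangle coloured by search rule. Full matches lie before the coding region in Fth1-201, Ftl1-201 and Slc40a1-201 and after it in Tfrc-201, which also has a match with the loop CAGAGN. Slc11a2-205 has only a match with 1 unpaired base, after the coding region. Slc11a2-201 and the transcripts of Aco1, Ireb2, Hmox1 and Hmox2 have none.

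The level of the 9 mRNAs spanned 3 tiers. Both ferritin chains stood far above the rest, at 4322 and 1015 TPM. The genes Hmox2, Ireb2, Aco1 and Tfrc lay between 48.7 and 56.3 TPM. Slc11a2, Slc40a1 and Hmox1 were lowest, between 10.4 and 20.2 TPM. The median of the 9 means was 48.7 TPM, against 21.9 TPM for detected protein-coding genes.

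**Figure D2:**
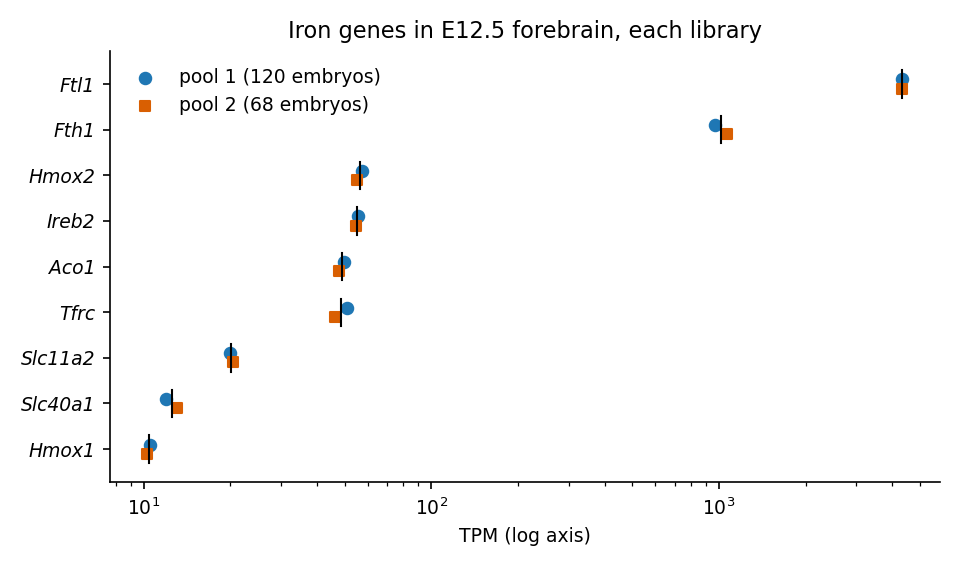
TPM of each iron gene on a log axis, with a circle for pool 1, a square for pool 2 and a vertical line at their mean. The ferritin chains Ftl1 (4322 TPM) and Fth1 (1015 TPM) stand apart from the other 7 genes, which lie between 10.4 and 56.3 TPM, and the pools nearly coincide for every gene.

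Of the uptake genes, Tfrc encodes the transferrin receptor, which carries iron-loaded transferrin into the endosome. It lies at chr16:32608920-32632794 on the plus strand of GRCm38. Its level was 51.0 TPM in pool 1 against 46.3 TPM in pool 2 (48.7 ± 3.3), from 4028 and 3744 counts. Pool 1 was the higher, and the range overlapped that of Aco1, so the order of these 2 genes was not resolved.

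Slc11a2 encodes the divalent metal transporter DMT1, which moves ferrous iron across the endosomal and cell membrane. It lies at chr15:100387898-100425072 on the minus strand. Its level was 20.0 TPM in pool 1 against 20.4 TPM in pool 2 (20.2 ± 0.29), from 1312 and 1264 counts. Within each library the receptor's TPM was 2.55 and 2.27 times that of this transporter (2.41 ± 0.20). The pools were close to each other for the transporter, and its range touched that of no other gene of the set.

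Of the storage genes, Ftl1 encodes the ferritin light chain, which promotes iron mineral formation inside the shell. It lies at chr7:45457944-45459884 on the minus strand. Its level was 4319.9 TPM in pool 1 against 4324 TPM in pool 2 (4322 ± 2.99), from 79213 and 82614 counts. It ranked 8 among 22015 nuclear protein-coding genes. The coefficient of variation over the pools, 0.0692%, was the smallest of the 9 genes.

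Fth1 encodes the ferritin heavy chain, the subunit with the ferroxidase centre that oxidises ferrous iron for storage. It lies at chr19:9980598-9985098 on the plus strand and ranked 57. Its level was 967 TPM in pool 1 against 1063 TPM in pool 2 (1015 ± 68.2), from 17026 and 19556 counts. The light chain's TPM was 4.47 times the heavy chain's in pool 1 and 4.07 times in pool 2 (4.27 ± 0.28). The light chain mRNA was thus the more abundant in both pools, and the lower ratio of pool 2 came with the higher heavy chain level there.

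Export rests on Slc40a1, which encodes ferroportin, the known iron exporter of mammalian cells. It lies at chr1:45908068-45926523 on the minus strand. Its level was 11.98 TPM in pool 1 against 13.02 TPM in pool 2 (12.5 ± 0.735), from 830 and 940 counts. Within each library the receptor Tfrc exceeded it 4.26-fold and 3.56-fold (3.91 ± 0.49), and Slc11a2 exceeded it 1.67-fold and 1.57-fold. Both uptake mRNAs were therefore above the export mRNA in each pool.

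The sensors are Aco1, which encodes iron regulatory protein 1, a cytosolic aconitase when it holds an iron-sulfur cluster, and Ireb2, which encodes iron regulatory protein 2, degraded when iron is plentiful. Aco1 lies at chr4:40143081-40198338 and Ireb2 at chr9:54863789-54912530, both on the plus strand. Aco1 stood at 49.8 TPM in pool 1 against 47.6 TPM in pool 2 (48.7 ± 1.56), from 3817 and 3807 counts. Ireb2 stood at 55.7 TPM in pool 1 against 54.9 TPM in pool 2 (55.3 ± 0.537), from 6591 and 6740 counts. The ranges of the 2 sensors did not overlap, and Ireb2 was 1.12 and 1.15 times Aco1 within the libraries (1.13 ± 0.025). In counts not scaled for length the ratio was 1.75, as the Ireb2 transcript is the longer.

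Heme breakdown, which frees iron, runs through the stress-inducible heme oxygenase Hmox1 and the constitutive Hmox2. Hmox2 lies at chr16:4726361-4766742 and Hmox1 at chr8:75093621-75100589, both on the plus strand. Hmox2 stood at 57.3 TPM in pool 1 against 55.4 TPM in pool 2 (56.3 ± 1.41), from 1590 and 1561 counts. Its range overlapped that of Ireb2. Hmox1 stood at 10.5 TPM in pool 1 against 10.3 TPM in pool 2 (10.4 ± 0.148), from 328 and 335 counts, the fewest of the set. Hmox2 exceeded Hmox1 5.46-fold and 5.37-fold within the libraries (5.41 ± 0.058). An exon of Hmox2 overlaps Cdip1 on the other strand, and whether counting used strand is not given in the sources used here, so reads of the overlap cannot be told apart. The same holds for Ftl1, which overlaps Gm10252 on the other strand, and for Slc11a2, which overlaps Gm5475.

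For most of the set a single coding transcript carried the signal. Fth1-201 held 97.8% and 98.9% of the gene's TPM in pools 1 and 2, and Ftl1-201 held 97.4% and 97.5%. Slc40a1-201 held 97.9% and 98.1%, Aco1-201 held 96.1% and 96.3%, and Ireb2-201 held 95.6% and 94.2%. Hmox1-201 held 100% in both pools. Tfrc, Slc11a2 and Hmox2 divided their signal among several transcripts.

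Tfrc-201, the full coding transcript of 4890 bases, stood at 32.2 TPM in pool 1 against 27.6 TPM in pool 2. That was 63.0% and 59.5% of the gene's TPM. A further 34.2% and 37.5% lay in transcripts annotated as retained introns, led by Tfrc-204 (3527 bases), at 9.17 and 9.61 TPM. Among 7592 detected protein-coding genes that have such a transcript the median share was 10.1%, and 86.8% of them had a smaller share than Tfrc. By counts the retained-intron share was smaller, 18.8% and 21.8%, since Tfrc-205 (571 bases) gained weight when counts were divided by its short length. Counting protein-coding transcripts alone, Tfrc averaged 31.3 TPM, or 2.57 times Slc40a1, in place of 48.7 TPM and 3.91 times. The shorter Tfrc-203 of 166 bases showed the same dependence on length, with 2 counts in each pool giving 1.41 and 1.35 TPM.

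Slc11a2 had 2 long coding transcripts with different 3′ ends, one with and one without the hairpin match. Slc11a2-201, without it, stood at 9.05 TPM in pool 1 against 8.20 TPM in pool 2. Slc11a2-205, with the relaxed match printed above, stood at 7.98 and 7.28 TPM. The transcript with the match was 0.882 and 0.888 times the one without it (0.885 ± 0.0043), or 46.9% and 47.0% of the pair. The deposited intervals of the posterior mean overlapped in both pools, at 6.99 to 8.36 TPM for Slc11a2-205 and 7.66 to 9.56 TPM for Slc11a2-201 in pool 1, so the 2 forms were not separated within a library. Slc11a2-204, a nonsense-mediated decay transcript of 393 bases, took 14.7% and 19.1% of the gene's TPM from 18.3 and 25.3 counts.

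Hmox2 was spread over coding transcripts. Hmox2-203 stood at 33.8 TPM in pool 1 against 34.4 TPM in pool 2. Hmox2-201 stood at 18.8 TPM in pool 1 against 13.5 TPM in pool 2, and Hmox2-202 at 1.20 and 3.77 TPM. Hmox2-203 was the highest in both pools, while the division among the others differed between the pools more than the gene total did. The deposited intervals still overlapped between the pools, so this difference was not resolved. They were 15.1 to 21.3 and 10.3 to 16.3 TPM for Hmox2-201, and 0.207 to 3.04 and 1.67 to 6.70 TPM for Hmox2-202.

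**Figure D3:**
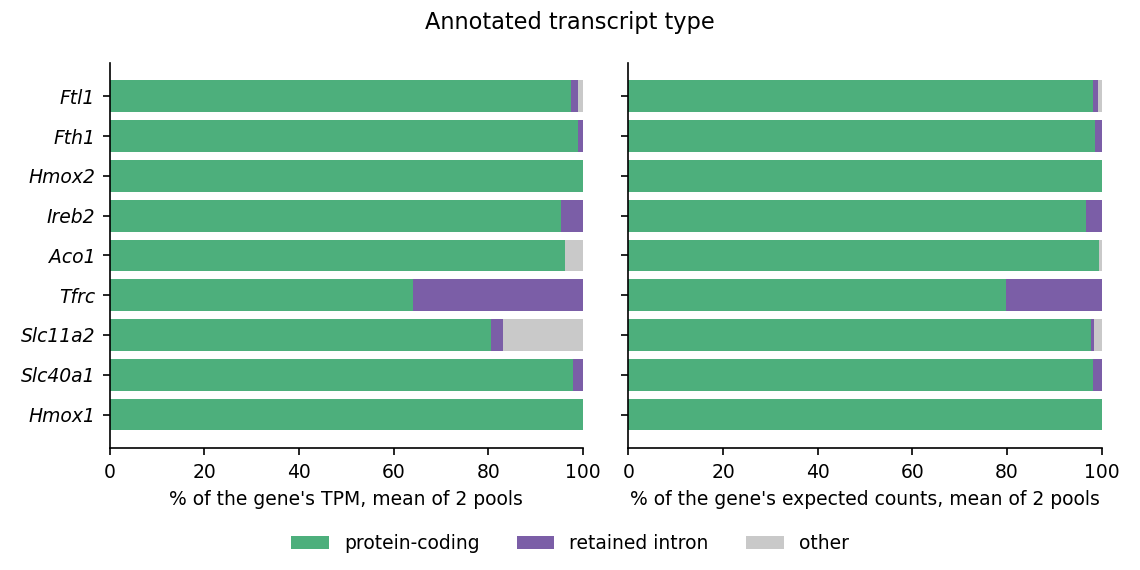
Share of each gene's TPM (left) and of its expected counts (right) held by transcripts annotated as protein-coding, retained intron or other, as means of both pools in percent. Tfrc has the largest retained-intron share of the set in both panels (35.9% of TPM and 20.3% of counts), and the grey share of Slc11a2 (16.9% of TPM) falls to 1.70% of counts.

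The transcripts with a full hairpin match held nearly all of the ferritin and ferroportin signal. They took 99.1% and 99.3% of the TPM of Fth1 in pools 1 and 2, 97.6% and 97.7% of that of Ftl1, and 100% of that of Slc40a1 in both. For Tfrc they took 81.0% and 80.3% of TPM, or 97.8% and 97.6% of counts, the retained-intron Tfrc-204 included. For Slc11a2 the share was 0 under the full pattern. Under the relaxed one it was 40.0% and 35.7% of TPM, or 55.7% and 55.0% of counts.

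Ferritin genes have copies elsewhere in the mouse genome, many of them near-identical in the case of Ftl1. Reads of such copies can be shared out among them, so the levels of Ftl1 and Fth1 carry that uncertainty. For Ftl1, 8 gene or pseudogene copies with at least 90% identity held 1.84% of the joint counts in pool 1 and 1.67% in pool 2. The largest was Ftl1-ps1 on chromosome 13, annotated as protein-coding and 99.6% identical, at 77.7 and 68.6 TPM. Gm15590 (4.42 and 6.05 TPM), Ftl2-ps (4.01 and 5.79 TPM) and Gm7541 (1.62 and 0.83 TPM) were the others with a mean of at least 1 TPM. For Fth1, 6 entries found by sequence or by name held 0.180% and 0.118% of the joint counts. Gm6977 was highest at 2.58 and 1.77 TPM and was the only one found by sequence, at 90.5% identity. The others were taken by name alone, without a measured identity, so how far they share reads with Fth1 is not known. Adding all of these copies to either gene would leave the order of the 9 genes as it was.

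Within Ftl1 lies a small entry that changes how the locus reads in TPM. Gm22133, annotated as a miRNA of 109 bases at chr7:45458089-45458197, covers bases 715 to 823 of Ftl1-201 on the same strand, across the end of the coding region at base 802. It received 681 counts in each pool, 0.859% and 0.825% of the Ftl1 counts. Because the effective length assigned to it was 10 bases, those counts became 3206 TPM in pool 1 against 3081 TPM in pool 2, or 74.2% and 71.3% of the TPM of Ftl1 itself. A listing by TPM alone would place this entry beside the ferritin chains, although its reads match Ftl1 in full. Another 12 miRNA entries match Ftl1 elsewhere in the genome, and 11 of them had 0 counts in both pools.

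Between the pools, the iron genes differed little. With counts scaled by TMM (a normalisation to the bulk of genes), 0 of 9 were over 1.5-fold apart, a threshold that 11.2% of the 19063 genes averaging 10 or more counts passed (3.26% higher in pool 1 and 7.96% in pool 2). Among 10569 genes with a mean count at least that of Hmox1 (331.5), 0.965% passed it (0.341% higher in pool 1 and 0.624% in pool 2), so the count of 0 is close to the background at this depth. Of the 9 genes, 7 were higher in pool 1 and 2 in pool 2, against 49.4% of the 19063 genes and 57.8% of the 10569 higher in pool 1. The median size of the log2 ratio was 0.10 over the 9 genes, 0.13 over the 19063 and 0.079 over the 10569.

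Under TMM scaling Tfrc had the largest ratio, 1.13-fold higher in pool 1 (95% exact binomial interval 1.08 to 1.19). Fth1 was 1.09-fold higher in pool 2, a log2 ratio of -0.12 (interval -0.15 to -0.095). Slc11a2 was 1.09-fold higher in pool 1 (1.01 to 1.18) and Slc40a1 1.07-fold higher in pool 2, with an interval of the log2 ratio from -0.24 to 0.032. The intervals cover counting error only, and with 1 library a side they say nothing of differences between litters. Reads copied by PCR were counted without molecular identifiers, so they are not independent.

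The direction of these small ratios depended on the scaling. Scaled to the ERCC totals, the median log2 ratio of all genes moved to -0.17, 6 of the 9 genes changed sign (Ftl1, Slc11a2, Aco1, Ireb2, Hmox1 and Hmox2), and only Tfrc stayed above 0, at 0.018, the smallest of the 9 in size. Fth1 then had the largest, at -0.29, followed by Slc40a1 at -0.27. As a ratio of TPM + 1, Ftl1 and Slc11a2 changed sign, and Fth1 and Tfrc were about equal in size, at -0.14 and 0.14. Only Tfrc (higher in pool 1) and both Fth1 and Slc40a1 (higher in pool 2) kept their direction under every scaling tried. Markers of other cells moved as well, with 12 of 13 erythroid genes higher in pool 2 at a median log2 ratio of -0.41 and a summed TPM of 12689 and 16997, and 10 of 12 macrophage and microglia genes higher in pool 2 at a median of -0.098 and a summed TPM of 54.0 and 61.7. All 10 markers of mesenchyme and meninges were higher in pool 2, at a median of -0.37 and a summed TPM of 682 and 830.1, as were 6 of 7 choroid plexus markers, at a median of -0.58 and a summed TPM of 101 and 149. Endothelial markers had a median of 0.043 and a summed TPM of 189 and 191. Other lists had more genes higher in pool 1, namely postmitotic neuron (7 of 10, median 0.14), oligodendrocyte lineage (5 of 7, median 0.12) and radial glia (7 of 10, median 0.024). Of the 19063 genes 49.4% were higher in pool 1, at a median of -0.0026. Of the 10569 genes with a mean count at least that of Hmox1 57.8% were, at a median of 0.022. The radial glia median was near the latter. These medians are under TMM scaling. With ERCC scaling the endothelial one was -0.12, the neuronal one -0.026, the oligodendrocyte lineage one -0.041 and the radial glia one -0.14. The medians of the other marker lists stayed below 0. The part of these cells in the ratios of the iron genes was not tested.

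**Figure D4:**
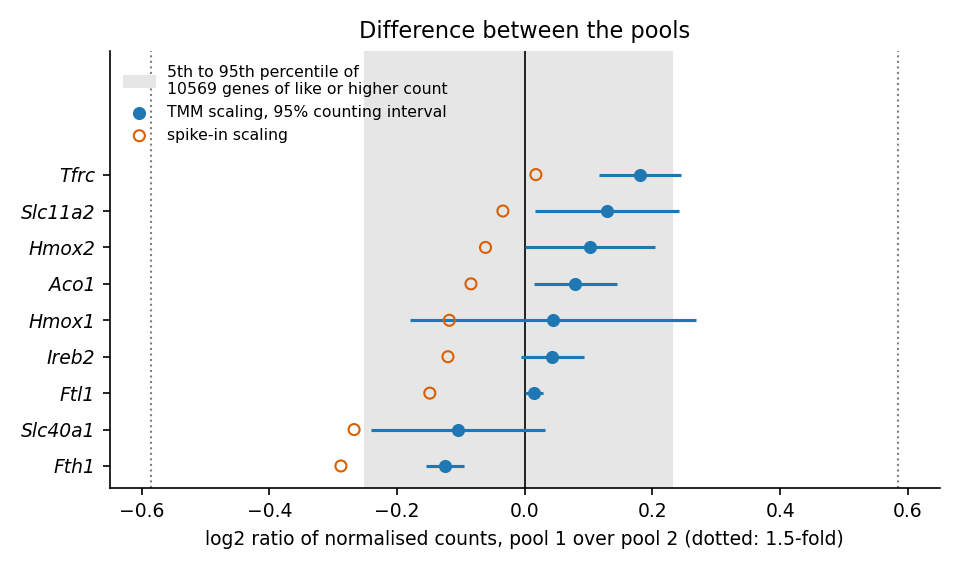
log2 ratio of normalised counts, pool 1 over pool 2, for the 9 iron genes, with filled points and 95% counting intervals under TMM scaling and open points under ERCC scaling. The grey band is the 5th to 95th percentile of 10569 genes with a like or higher count, all filled points lie inside it and inside the dotted 1.5-fold lines, and the open points of 6 genes lie on the other side of 0.

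The wider pathway was read from 12 gene lists with 104 genes, of which 91 (87.5%) had a TPM of at least 1 in both pools. Of all 22028 protein-coding genes, 58.9% did. The median of their mean TPM in the lists was 24.5. Of 98 listed genes averaging 10 or more counts, 7 (7.14%) were over 1.5-fold apart between the pools. By the same rule 11.2% of all 19063 genes were, and 0.965% of the 10569 genes with a mean count at least that of Hmox1. The share falls with depth and the lists were not matched for it, so no excess or lack can be read from it. The 7 listed genes were Tfr2, Steap4, Scara5, Cp, Hfe2, Tmprss6 and Erfe, each below 3 TPM on average and with fewer counts than Hmox1.

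Around the receptor, 8 of 11 uptake and reduction genes were detected. Snx3, which returns the transferrin receptor to the cell surface, led at 198 TPM in pool 1 against 196 TPM in pool 2. Transferrin itself (Trf) stood at 10.3 and 10.1 TPM. Among the ferrireductases of the Steap family, Steap2 was highest at 6.45 and 5.51 TPM, Steap1 stood at 3.33 and 2.88 TPM, and Steap3, the reductase of erythroid endosomes, at 1.30 and 1.14 TPM. The transporters of iron not bound to transferrin, Slc39a8 (8.58 and 10.4 TPM) and Slc39a14 (5.79 and 9.60 TPM), were both higher in pool 2. The second transferrin receptor gene, Tfr2, at 0.88 and 1.37 TPM, was far below Tfrc.

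Of the ferroxidases that work with ferroportin, Heph stood at 7.49 and 7.79 TPM and Cp at 1.33 and 3.29 TPM, with pool 2 the higher for Cp. Hephl1 had 0 counts in both pools, where 3 counts would have given 0.0274 TPM in pool 1.

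All 7 genes of ferritin turnover and iron delivery were detected. Pcbp1, an iron chaperone that loads ferritin, stood at 388 TPM in pool 1 against 440 TPM in pool 2, and its relatives Pcbp4 and Pcbp2 averaged 238 and 150 TPM. Glrx3, a glutaredoxin of cytosolic iron handling, averaged 216 TPM. Ncoa4, the receptor that takes ferritin to the lysosome for iron release, stood at 74.0 and 71.9 TPM, at a level near those of Hmox2 and Ireb2 rather than of the ferritin chains. The ferritin of mitochondria, Ftmt, had 0 counts in both pools, with a floor of 0.105 TPM in pool 1 from 3 counts.

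The genes that set the state of the iron regulatory proteins were all present, 11 of 11. Fbxl5, the iron-sensing subunit of the ligase that marks iron regulatory protein 2 for degradation, stood at 55.0 and 54.9 TPM, next to Ireb2 itself at 55.7 and 54.9 TPM. Its partners Skp1a, Rbx1 and Cul1 averaged 781, 445 and 167 TPM. Of the cytosolic iron-sulfur assembly genes, Ciapin1 was highest at 137 TPM and Narfl lowest at 20.2 TPM on average.

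Mitochondrial iron and iron-sulfur assembly had 19 of 20 genes detected, led by Hspa9 (174 TPM), Glrx5 (129 TPM), Isca2 (116 TPM) and Isca1 (87.4 TPM), with Iba57 lowest of those detected at 4.89 TPM. All 9 heme synthesis genes were detected. Alas1, the housekeeping form of the first enzyme, stood at 60.9 and 61.8 TPM. Alas2, its erythroid form, stood at 21.1 TPM in pool 1 against 30.1 TPM in pool 2, and Fech, which inserts iron into heme, at 30.1 and 43.3 TPM. Both were higher in pool 2, the pool with the higher summed erythroid marker TPM, and Alas2 is itself one of those markers. The part of erythroid cells in these values was not tested.

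Downstream of the heme oxygenases, the biliverdin reductases Blvra (14.1 and 14.8 TPM) and Blvrb (14.1 and 17.4 TPM) lay a little above Hmox1. The endosomal heme transporter Slc48a1 averaged 29.2 TPM and the heme exporter Flvcr1 8.27 TPM. Regulators of Hmox1 transcription were detected in 6 of 7 cases, with the repressor Bach1 at 15.1 and 15.2 TPM, the activator Nfe2l2 at 15.9 and 14.6 TPM, and Keap1, which targets Nfe2l2 for degradation, at 38.7 and 37.2 TPM. All 8 target genes of Nfe2l2 were detected, from Prdx1 at 721 TPM to Slc7a11 at 1.98 TPM.

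Of the hormonal arm, 2 of 8 genes of the hepcidin axis had a TPM of at least 1 in both pools, Neo1 at 37.1 and 37.0 TPM and Hfe at 1.55 and 1.95 TPM. Bmp6, which induces hepcidin, stood at 0.94 and 1.32 TPM, and Tmprss6, Hfe2 and Erfe averaged between 0.54 and 0.72 TPM, from a mean of 10 counts or more each. Hamp and Hamp2, the hepcidin genes, had 0 counts in both pools, where 3 counts would have given 0.454 and 0.431 TPM in pool 1. The transcripts of Hamp and Hamp2 were therefore not detectable at this depth.

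Of 8 other mRNAs known or reported to carry an iron-responsive element, all were detected. Alas2 matched the full pattern in its 5′ UTR and is shown for comparison with the ferritin hairpins.
Alas2 5′ UTR, chrX:150547464-150547480, plus strand: tttggttCgtcctCAGTGCagggcaacagg
Epas1, a hypoxia-inducible factor, matched only with 1 unpaired base allowed and stood at 2.61 and 2.18 TPM. All 5 ferroptosis genes were detected, with Gpx4, which removes lipid peroxides, highest at 338 and 359 TPM.

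**Figure D5:**
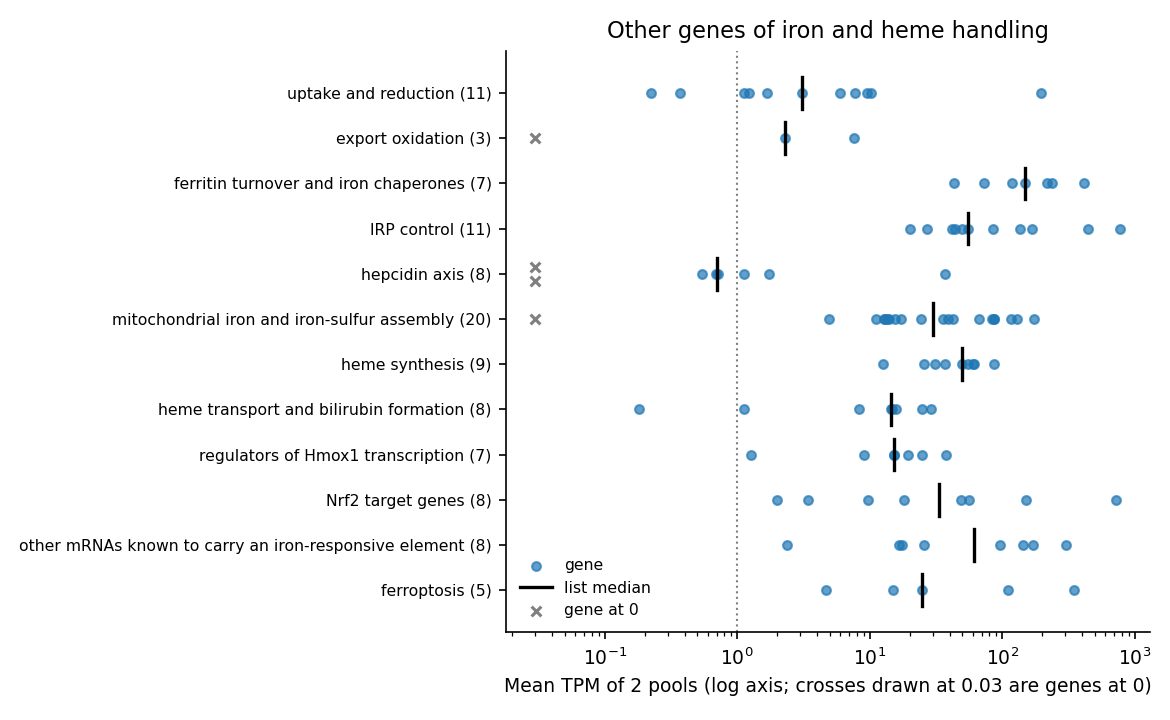
Mean TPM of both pools on a log axis for each gene of 12 lists of iron and heme handling (number of genes in brackets), with the list median as a vertical line, genes at 0 as crosses and TPM 1 as a dotted line. Ferritin turnover genes have the highest median (150 TPM) and the hepcidin axis the lowest (0.705 TPM), with 2 of its 8 genes at 0.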

How the data were processed

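Forebrain polyA RNA of 2 pools of embryos was primed with oligo-dT, amplified as full-length cDNA with a low-input kit and cut by tagmentation, with ERCC RNAs added, per the labels' protocols. For each library the authors deposited tables by gene and by transcript, on mm10 with GENCODE releases M4 and M21. The deposited expected counts are estimated reads, with reads of several matches shared out, and were rounded for scaling. The deposited TPM values sum to 1e6 per library, and the FPKM values deposited beside them are read per kilobase of transcript, per the file headers. A posterior mean TPM with interval bounds was also deposited and was treated as a score. Aligner, quantifier, versions and use of strand: not given in the sources used here. The header names follow the layout of RSEM.

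Release M21 was the main one. Entries that name no gene held 5.74e-05% and 9e-05% of counts and were left out. Counts of genes with a mean of at least 10 were scaled by TMM in edgeR 4.0.16, with a prior count of 1, and DESeq2 1.42.0 size factors, ERCC totals and TPM + 1 were alternatives. On simulated data (19051 genes, 200 changed, pool 1 over pool 2), the median recovered fold was 1.47 for 1.5 and 2.03 for 2. Copies were searched with blastn 2.17.0 at 90% identity over 80% of the copy. Python 3.11.15, numpy 2.4.6, pandas 2.3.3, scipy 1.17.1 and R 4.3.3 were used.

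The 9 members and all lists were chosen with earlier results of these data known. Named were the members, any gene of lists with 11 or fewer genes, the 4 highest and 2 lowest of longer lists, genes past 1.5-fold, and ferritin copies with a TPM of at least 1. Gm22133 was named after its values were seen. Tf and Fam132b were matched as Trf and Erfe, and 1 erythroid marker, Ahsp, was not matched. The hairpin was searched in GENCODE M21 transcripts. The 9 genes were not tested for a difference between the pools, which are 1 library each. Values of 1 further listed gene are not reported here.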

Additional observations from a re-analysis of the deposited data

How the results depend on the processing

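All 9 genes were detected, and 0 of 9 were over 1.5-fold apart, under every alternative run for these counts (a TPM of at least 5 and release M4 for the first, DESeq2 size factors, ERCC totals, TPM + 1, release M4, no count filter and a prior count of 5 for the second). With release M4 the ratio of Ireb2 to Aco1 was 1.07 and that of Hmox2 to Hmox1 5.50. By counts not scaled for length these were 1.75 and 4.75, and Tfrc to Slc40a1 was 4.42. With protein-coding transcripts only, Tfrc to Slc40a1 fell to 2.57, as the level of Tfrc was 31.3 TPM, 0.642 times the main value and below Aco1. The share of Slc11a2 TPM in transcripts with a hairpin match was 37.8% with 4 of 5 pairs or with 1 unpaired base. By counts the share was 97.7% for Tfrc and 98.2% for Ftl1. The other 50 values of these results differed from the main one by no more than the spread between the pools. Those among them with one pool left out could not differ by more, as each of 2 values lies within 1 SD of their mean. Without one pool, Ftl1 to Fth1 ranged from 4.07 to 4.47, Ireb2 to Aco1 from 1.12 to 1.15, Hmox2 to Hmox1 from 5.37 to 5.46 and Tfrc to Slc40a1 from 3.56 to 4.26. Levels of the 9 genes in release M4 were 0.995 to 1.12 times those in M21. Over 9353 genes the median was 1.05 and the 5th to 95th percentile 0.642 to 1.10. Some listed genes moved further, such as Pcbp2 (150 TPM in M21 and 66.5 TPM in M4), Rbx1 (445 and 282 TPM) and Ciapin1 (137 and 292 TPM). Levels of the 9 genes were 1.01 times the main value with transcripts under 200 bases left out of the total. FPKM values of all 9 genes were 0.617 to 0.618 times their TPM. The choice to leave those out, the deeper background and the search of all transcripts for copies were added after seeing the data. No paired analysis was possible because there is only 1 group. The difference between the pools has no value with a pool left out. Depth limits Hmox1, with the lowest counts of the set (328 and 335), most.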
